A study of Danio rerio with 28 samples.

Results

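Biliary epithelial cells (BECs) from zebrafish livers at 2 days post ablation (dpa) of hepatocytes were compared with BECs from uninjured livers. Cells were chosen by their own counts. A barcode was called a cell if its total of UMIs (unique molecular identifiers, each standing for 1 captured transcript) exceeded the mean of its library. A called cell was taken as a BEC if the markers anxa4, lgals2b, epcam, tm4sf4 and cdh1 together held at least 3 UMIs and at least 0.4% of its UMIs, and the hepatocyte genes apoa1b, apoa2, fabp10a and tfa together held under 2%. This selected 1282 BECs of 2111 called cells in the 3 libraries labelled 2 dpa, and 1038 of 3673 in the 3 libraries labelled uninjured mCherry+ cells. Over all 28 libraries of the series the rule selected 4469 BECs of 25842 called cells.

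The libraries were made by Drop-Seq, in which single cells are captured in droplets with barcoded beads, from enzymatically dissociated livers of adult fish. Every group used here carried Tg(Tp1:CreERT2) together with the reporter Tg(-3.5ubb:LOXP-EGFP-LOXP-mCherry) and with the ablation transgene Tg(fabp10a:CFP-NTR), and in every group mCherry+ cells were sorted. Tp1 is a Notch-responsive element, so that the lineage label rests on Notch activity at the time of larval tamoxifen induction. The fabp10a promoter drives nitroreductase in hepatocytes, which die when the fish are exposed to metronidazole. Uninjured fish were not ablated, 2 dpa fish had lost their hepatocytes to metronidazole, and 3 libraries of mock-treated fish with 480 BECs of 2689 called cells served as another control. The deposited libraries of uninjured mCherry+ cells bear another library series number than the mock and 2 dpa libraries, so that library series and condition cannot be told apart in the main comparison, and mock values are given beside it.

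BECs line the bile ducts that carry bile from the hepatocytes. In the healthy liver they divide rarely and are held in their identity by Notch signaling and by transcription factors such as Sox9. When hepatocytes are lost on a large scale, BECs can lose duct features, enter the cell cycle and give rise to new hepatocytes, passing through a state that resembles the hepatoblast, the common embryonic precursor of both lineages.

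More RNA was captured per BEC at 2 dpa than in uninjured livers. The median was 3657, 3298 and 4319 UMIs per BEC in the 2 dpa libraries and 1398, 1317 and 1338 in the uninjured libraries. The groups did not overlap, and the mean of 3758 ± 518 was 2.78-fold that of 1351 ± 42.0 (SD, n = 3 libraries each; two-sided exact permutation p = 0.1, the smallest that 3 against 3 libraries allow). Genes detected per BEC followed, with medians of 1152, 1091 and 1318 against 568, 540 and 553. The other called cells of the same libraries had medians of 1266, 1373 and 1527 UMIs at 2 dpa and 1056, 1112 and 993.5 in uninjured livers. The BEC median was thus 2.89, 2.4 and 2.83 times that of the other called cells at 2 dpa, and 1.32, 1.18 and 1.35 times in uninjured libraries (exact permutation p = 0.1). Total UMIs entered the cell call, whose minimum ran from 616.1 to 762.8 UMIs at 2 dpa and from 379.7 to 490.3 in uninjured libraries. Capture efficiency per droplet and RNA content per cell cannot be told apart by these counts.

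**Figure D1:**
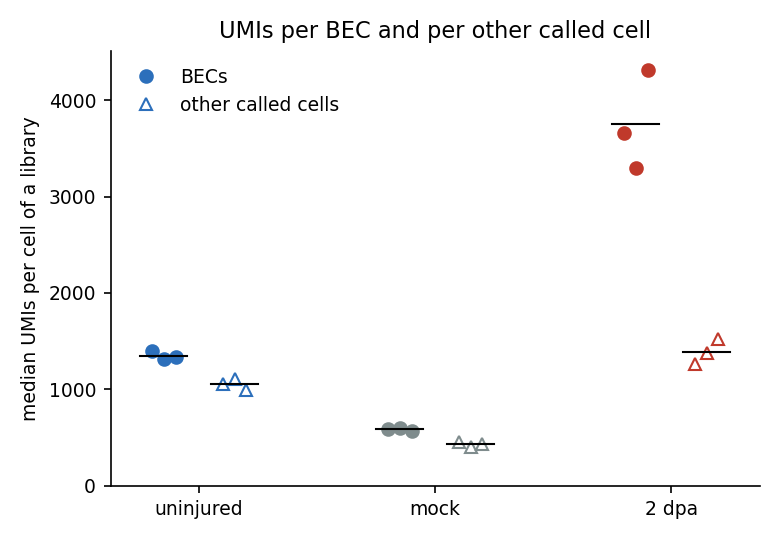
Median UMIs per cell (vertical axis, linear) of BECs (filled circles) and of the other called cells (open triangles) in the uninjured, mock and 2 dpa groups; each point is 1 library and lines are group means. BECs at 2 dpa lie between 3298 and 4319 UMIs, above every uninjured library, whereas the other called cells lie between 993.5 and 1527 UMIs in those groups and mock BECs between 568 and 597.

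BECs made up 59.1%, 59.8% and 63.3% of called cells at 2 dpa and 28.5%, 29.7% and 26.8% in uninjured libraries. The share rests on the rule and on the mCherry sort and is a description. The summed BECs held 1743903 to 2314190 UMIs per library at 2 dpa and 487557 to 657724 in uninjured libraries, from 5000 barcodes in each library. The BEC markers held 1.02%, 0.987% and 0.970% of BEC UMIs at 2 dpa against 2.2%, 2.07% and 2.13%. Among the marker genes, which chose the cells and are therefore given without a test, anxa4, an annexin of the biliary membrane, had a mean of 4230 CPM (counts scaled to the UMI total of the sum) at 2 dpa and 11620 CPM in uninjured BECs. The epithelial cadherin cdh1 stood at 249 against 1448 CPM, while tm4sf4 was almost level at 1194 and 1207 CPM. Of the hepatocyte genes of the rule, fabp10a stood at 407.5 against 76.0 CPM and apoa1b at 9.17 against 87.5 CPM. In mock BECs fabp10a stood at 247, 241 and 237 CPM and apoa1b at 142, 137 and 223 CPM. The hepatocyte limit removed 5 cells at 2 dpa and 1 in the uninjured libraries.

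Values on either side of the marker limit are given once. At 2 dpa 475 BECs held 0.4% to 0.8% markers and 172 called cells held 0.2% to 0.4%, against 94 and 459 in uninjured libraries. At 2 dpa the cells just inside had medians of 2599, 2767 and 3978 UMIs, and those just outside 1091, 1232 and 1487. The proliferation marker mki67 stood at 201.5, 255.3 and 286.4 CPM just inside in replicates 1, 2 and 3 at 2 dpa, and at 259.7, 165.1 and 168.2 CPM just outside. It was higher outside in replicate 1 and higher inside in the other two. The fibrinogen gene fgg stood at 1822, 1611 and 1726 CPM inside and 809, 990.7 and 796.3 CPM outside, and cd74a at 37.4, 28.0 and 19.9 against 419.5, 187.1 and 370.1 CPM.

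Lymphocyte, macrophage and islet markers held smaller shares of BEC UMIs at 2 dpa than in uninjured BECs. So did endothelial, stellate, thrombocyte, acinar and neuron markers, and narrowly erythrocyte markers. Neutrophil and fibroblast ranges overlapped, and hepatocyte markers held more at 2 dpa. The part of RNA from other cell types in the results was not tested. Lymphocyte markers, of which 8 of 9 were in the files, held 0.00114% to 0.00166% of BEC UMIs at 2 dpa and 0.0144% to 0.0203% in uninjured BECs. The 8 macrophage markers held 0.0116% to 0.0129% against 0.153% to 0.164%, and both ranges lay below those of the other called cells of the same libraries, 0.633% to 0.699% and 0.630% to 0.710%. Most of the macrophage signal in uninjured BECs was cd74a, at 1456, 1333 and 1364 CPM, against 35.8, 24.1 and 22.9 CPM at 2 dpa. Another of these markers, grn1, was lower by far less, at 36.4, 41.9 and 45.4 CPM at 2 dpa against 51.7, 49.2 and 51.8 CPM. Each of the lymphocyte and macrophage markers had at least 1 UMI in both BEC sums. The 6 neutrophil markers held 0.00321% to 0.00603% against 0.00384% to 0.0113%, with the myeloperoxidase gene mpx at 0 in uninjured BECs. The 8 hepatocyte markers, 4 of which are the hepatocyte genes of the rule, held 0.257% to 0.320% against 0.0976% to 0.121%. In mock BECs they held 0.170% to 0.263%, which overlaps the range at 2 dpa. Barcodes outside the called cells, a measure of free RNA that also includes small cells, held hepatocyte markers at 0.203% to 0.209% at 2 dpa and 0.340% to 0.396% in uninjured libraries. The 3 islet markers held 0.000803% to 0.00298% of BEC UMIs at 2 dpa and 0.0827% to 0.222% in uninjured BECs, where barcodes outside the called cells held 0.0145% to 0.0181% and 0.0945% to 0.111%. Most of the islet signal was insulin, ins, at 2154, 915 and 771 CPM in uninjured BECs and 0.519, 1.15 and 0.432 CPM at 2 dpa. The part of islet RNA in the results was not tested. Cells with 0.5% or more of lymphocyte, macrophage and neutrophil markers together numbered 4 of the BECs at 2 dpa and 52 of the uninjured BECs. Only 9 cell barcodes were shared by more than 1 of the 6 libraries, 1 of them between the groups.

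The UMIs of the BECs were summed per library and tested with the quasi-likelihood method of edgeR, and p-values were adjusted by Benjamini and Hochberg over 8221 genes. At an adjusted p under 0.05, 6383 genes or 77.6% were called, 3343 higher (40.7%) and 3040 lower (37.0%) at 2 dpa. A call alone therefore sets a gene apart little, and each gene group below is read against these shares. In 3118 genes every 2 dpa library lay above every uninjured library, and in 3303 every one lay below. Of the called genes, 2810 rose and 2488 fell at least 2-fold. The median log2 change of all genes was 0.14, which is 0.22 more than with scaling by library size, and fitted changes lie above plain CPM ratios by about that much. Against mock BECs 6662 genes were tested, of which 1996 were higher (30.0%) and 1572 lower (23.6%), with a median of 0.28. Both comparisons use the same 2 dpa libraries and are not independent. The labels do not say whether libraries of a group came from separate fish, so p-values measure the spread between libraries, which may be technical.

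Genes of cell division rose almost without exception. Of 56 tested DNA replication genes, 55 rose and 1 fell, with a median log2 change of 4.02, or 3.94 with the 3 genes at 0 UMIs in uninjured BECs set to their lower bound. All 55 tested genes of mitosis rose, with a median of 4.97, or 4.24 with 12 such genes at their bound. Those 12, like the 3 of replication, passed the filter on low counts through the 2 dpa sums alone. They could only come out higher and add no weight to these counts. Other genes of both lists with few UMIs in uninjured BECs also passed through the 2 dpa sums, so the counts lean toward rises. Among those also tested against mock BECs, 48 of 53 replication genes and 50 of 52 mitosis genes were higher. Replication genes together held 0.322%, 0.327% and 0.340% of BEC UMIs at 2 dpa and 0.0708%, 0.0706% and 0.0673% in uninjured BECs. Mitosis genes held 0.618%, 0.653% and 0.632% against 0.0555%, 0.0556% and 0.0625%.

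**Figure D2:**
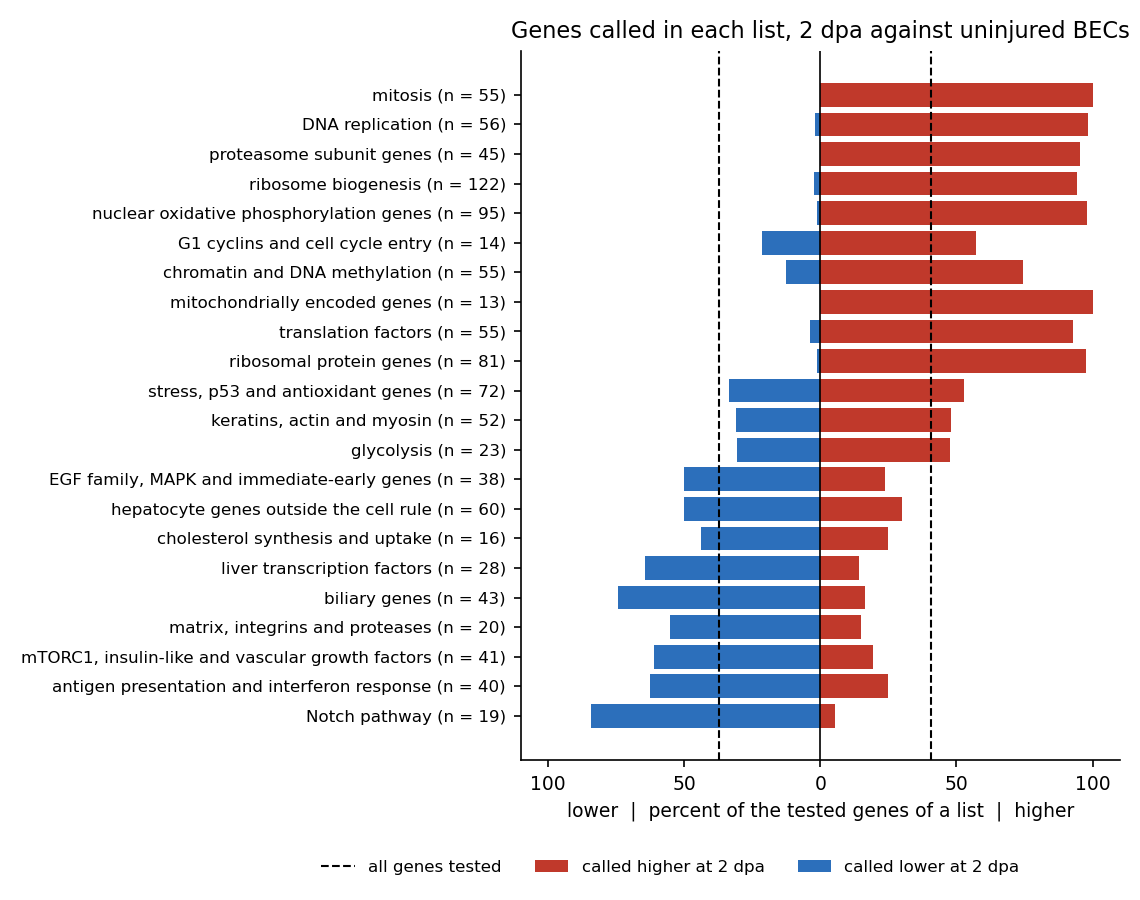
Percent of the tested genes of each gene list (rows, n tested in brackets) called higher (right) or lower (left) at 2 dpa by edgeR at an adjusted p under 0.05, with the lists ordered by their median log2 change; dashed lines mark all genes tested, 40.7% higher and 37.0% lower. Mitosis, with 55 of 55 genes higher, stands at the top and the Notch pathway, with 16 of 19 lower, at the bottom. Of the 55, 12 had no UMI in uninjured BECs and passed the filter through the 2 dpa sums alone. Others with few UMIs there also passed through the 2 dpa sums.

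The replication clamp pcna had 317, 292 and 311 CPM at 2 dpa, and 19.8, 14.4 and 13.4 CPM in uninjured BECs. It rose 21.9-fold (log2 4.45, SE 0.18, adjusted p = 6.6e-24 by edgeR). The helicase subunit mcm2 had 82.1, 84.9 and 89.0 CPM against 3.04, 2.05 and 5.75 (log2 4.74, SE 0.34, adjusted p = 6.6e-16). Replication genes outside the origin machinery rose as well. The chromatin assembly factor chaf1a had 187, 200 and 202 CPM against a single UMI in uninjured BECs, a ratio of 327 with a counting interval of 58.6 to 12938. Thymidylate synthase, tyms, had 57.1, 63.6 and 72.2 CPM and no UMI in uninjured BECs, which puts it at least 36.0-fold higher against a floor of 3 counts over the group. The gene that fell was gmnn, which encodes the replication licensing inhibitor geminin. It had 50.4, 32.1 and 54.0 CPM against 436, 427 and 370, and 419, 523 and 528 CPM in mock BECs (log2 -2.94, SE 0.13, adjusted p = 4.1e-22).

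Several mitotic genes had no UMI at all in uninjured BECs. The proliferation antigen mki67 had 182, 239 and 213 CPM at 2 dpa, 6.08, 4.10 and 11.5 CPM in uninjured BECs and a single UMI in mock BECs (log2 5.07, SE 0.25, adjusted p = 7.4e-21). Topoisomerase top2a had 41.6, 55.0 and 54.9 CPM, the chromosomal passenger kinase aurkb 52.5, 61.9 and 57.9 CPM and the mitotic kinase cdk1 44.1, 66.5 and 55.3 CPM. All 3 had 0 UMIs in the uninjured sums, so that they were at least 28.1-fold, 31.9-fold and 30.6-fold higher. Barcodes outside the called cells of the 2 dpa libraries held mki67 at 321 CPM and top2a at 89.8 CPM, above the BECs, and pcna at 244 CPM, below them. The background subtracted from each BEC was the 95th percentile of a gene's counts over the barcodes outside the called cells, in whole counts. It is 0 for a gene seen in few of these barcodes. For sparse genes the subtraction may thus remove nothing, and it cannot test the part of free RNA there. After it pcna, mki67, top2a, aurkb and cdk1 were each called higher again, mki67 at a log2 change of 4.68.

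Of 14 tested genes of the G1 phase, 8 rose and 3 fell. Without 2 dpa replicate 1 or 2 dpa replicate 3, 4 were higher. Those fits tested 6914 and 6933 genes in all against 8221, so these counts come from a smaller tested set. Their summed share of BEC UMIs was 0.0438% at 2 dpa, 0.0466% in uninjured and 0.0324% in mock BECs (means of 3 libraries). The D-type cyclin ccnd1 rose from 6.08, 6.15 and 3.84 CPM to 38.4, 50.5 and 38.0 CPM (log2 3.15, SE 0.38, adjusted p = 1.1e-09 by edgeR). Cyclin E2, ccne2, had 17.7, 14.9 and 27.2 CPM against 3 UMIs in the 3 uninjured libraries together, a ratio of 11.4 with a counting interval of 3.82 to 56.1. The other D-type cyclin ccnd2a fell from 219, 285 and 255 CPM to 67.5, 63.1 and 64.0 CPM (log2 -1.73, SE 0.13, adjusted p = 2.0e-15). In mock BECs ccnd2a stood at 105, 64.3 and 129 CPM, and the call was lost against them (log2 -0.59, adjusted p = 0.053). The inhibitor cdkn1bb, of the p27 family, fell by 1.01 on the log2 scale.

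Shares of cells were compared after each cell was thinned to 1000 UMIs, which left out 112 BECs at 2 dpa and 346 uninjured BECs. After thinning, mki67 was detected in 13.1%, 14.8% and 15% of BECs at 2 dpa and in 0.618%, 0.446% and 0.746% of uninjured BECs. Unthinned, the shares were 33.3%, 32.7% and 38.1% against 0.998%, 0.647% and 0.610%. In the other called cells at 2 dpa the thinned share was 10.1%, 10.8% and 8.36%, below that of the BECs in each library. For pcna the BECs stood at 22.8%, 20.7% and 22.6% (unthinned 52.2%, 45.6% and 53.7%) against 9.73%, 7.97% and 10.1%, and at 1.95%, 1.56% and 1.58% in uninjured BECs. At least 1 transcript of the mitosis list was seen in 94.9%, 92.7% and 94.8% of thinned BECs at 2 dpa, against 38.5%, 40.4% and 38.8% of uninjured BECs. The other called cells stood at 80.8%, 84.9% and 85.3% at 2 dpa and at 41.3%, 38.9% and 39.4% in uninjured libraries. The higher share at 2 dpa was thus not particular to BECs. The median BEC at 2 dpa gave 0.509%, 0.509% and 0.505% of its UMIs to mitosis genes. The thinned share for top2a, 3.27%, 3.89% and 4.52%, lay below the 5.38%, 4.64% and 5.50% of the other called cells of its own library and is not read as expression per cell.

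**Figure D3:**
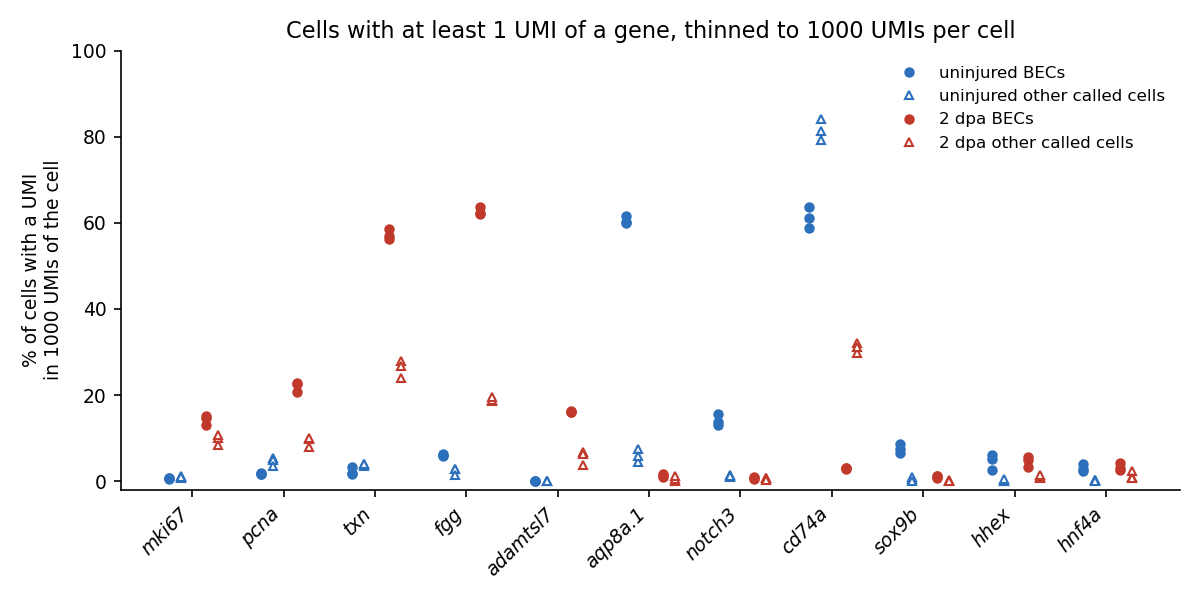
Percent of cells with at least 1 UMI of each gene after thinning to 1000 UMIs per cell (linear axis), in BECs (filled circles) and the other called cells (open triangles); each point is 1 library of the uninjured (blue) or 2 dpa (red) group. For mki67 the 2 dpa BECs lie between 13.1% and 15% and the uninjured BECs under 1%, and for aqp8a.1 the order is opposite, with 0.886% to 1.75% at 2 dpa against 60.0% to 61.5%.

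Genes of ribosome production were also higher at 2 dpa than in uninjured BECs. Of 122 tested ribosome biogenesis genes, 115 rose and 3 fell, with a median log2 change of 2.42. They held 1.89%, 1.91% and 1.90% of BEC UMIs at 2 dpa and 0.565%, 0.601% and 0.619% in uninjured BECs. Pa2g4a, a growth-regulated ribosome assembly factor, had 431, 510 and 461 CPM against 27.4, 12.3 and 7.67 CPM (log2 5.01, SE 0.18, adjusted p = 3.3e-25 by edgeR). The snoRNP protein gene nhp2 had 179, 166 and 176 CPM against 6.08, 10.3 and 5.75 (log2 4.79). The 3 that fell were nop53, ddx21 and rsl24d1, with log2 changes of -0.95, -0.98 and -1.13. Of the 120 also tested against mock BECs, 101 were higher and 3 lower.

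Ribosomal proteins took a larger part of the transcriptome. Of 81 tested genes, 79 rose and 1 fell, with a median of 0.94, and their summed share was 25.6%, 25.7% and 25.7% of BEC UMIs at 2 dpa against 16.3%, 16.3% and 16.4%. The small subunit gene rps4x had 3149, 3247 and 3160 CPM against 1260, 1356 and 1306 (log2 1.5, SE 0.05, adjusted p = 9.9e-27 by edgeR). The exception was rplp2, of the ribosomal stalk, with 1614, 1637 and 1491 CPM against 5025, 4602 and 4974, and 2973, 3507 and 3018 CPM in mock BECs (log2 -1.41, SE 0.05, adjusted p = 1.6e-26). Translation factors and tRNA ligases rose in 51 of 55 tested genes, with a median of 1.47. Among them the cap-binding eif4e1c had 200, 175 and 197 CPM against 4.56, 12.3 and 5.75 (log2 4.92). The elongation factor subunit eef1da and the nascent chain factor btf3 fell by 0.48 and 0.43, and the call of eef1da was lost against mock BECs (log2 -0.22).

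Protein turnover and respiration were the other groups that moved nearly whole. Of 45 tested proteasome subunit genes, 43 rose and none fell, with a median of 3.24, and their share of BEC UMIs was 0.841%, 0.847% and 0.836% against 0.113%, 0.105% and 0.114%. The core subunit psma5 had 303, 290 and 301 CPM against 12, 16.4 and 15.3 CPM, and 52.4, 56.3 and 74.4 CPM in mock BECs (log2 4.58, SE 0.18, adjusted p = 4.9e-24 by edgeR). Of 95 nuclear genes of oxidative phosphorylation, 93 rose and 1 fell (median 2.33), with summed shares of 3.17%, 3.24% and 3.29% against 0.734%, 0.758% and 0.761%. The cytochrome oxidase subunit cox6a1 had 760, 801 and 795 CPM against 44.1, 47.2 and 36.4 (log2 4.42, SE 0.12, adjusted p = 1.1e-29). The subunit that fell, cox4i2, had 7.27, 7.45 and 9.51 CPM against 44.1, 57.4 and 65.2. All 13 mitochondrially encoded genes rose, with a median of 1.55, and mt-atp6 had 1722, 1643 and 1750 CPM against 342, 316 and 340. The mitochondrial share of BEC UMIs was 1.09% ± 0.0165 against 0.640% ± 0.0363 (SD, n = 3 each). Against mock BECs the rises were smaller. There 41 of 44 proteasome genes (median 1.82), 82 of 93 nuclear oxidative phosphorylation genes (1.78) and 10 of 13 mitochondrially encoded genes (0.62) were higher.

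Stress genes went both ways, with 38 of 72 tested genes higher and 24 lower. These are 52.8% and 33.3%, against 40.7% and 37.0% of all genes. In the mock comparison 27 of 71 were higher and 25 lower, where 30.0% and 23.6% of all genes were. Summed, stress genes held less of the BEC UMIs, 4.21% at 2 dpa, 6.06% in uninjured and 6.28% in mock BECs (means of 3 libraries). Thioredoxin, txn, had 1170, 1162 and 1198 CPM at 2 dpa, against 19.8, 18.5 and 44.1 CPM in uninjured and 89.9, 32.2 and 74.4 CPM in mock BECs. It rose 50.4-fold (log2 5.66, SE 0.13, adjusted p = 6.4e-32 by edgeR). After thinning txn was seen in 57.0%, 56.2% and 58.5% of BECs at 2 dpa (unthinned 80.1%, 78.3% and 83.3%), in 24.0%, 28.0% and 26.7% of the other called cells there, and in at most 3.27% of uninjured BECs. The peroxiredoxin prdx1 rose by 5.49 and the lectin chaperone calr by 4.3. Among those that fell were sesn1 and tp53inp1, both known as p53 targets, at -2.18 and -2.31, and the lipid peroxidase gpx4a at -2.22. The call for tp53inp1 was lost against mock BECs (log2 -0.72, adjusted p = 0.34). The cytosolic heat shock genes hsp70l and dnajb1b, named after their values were seen, were lower by 1.31 and 1.08.

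Of 55 tested chromatin genes, 41 rose and 7 fell (median 2.05). Against mock BECs 33 of 52 were higher and 6 lower (median 1.26). The remodeler hells, which acts with DNA methylation at replication, had 130, 122 and 141 CPM against 1.52, 6.15 and 1.92 (log2 5.62, SE 0.32, adjusted p = 5.1e-19 by edgeR). The histone chaperone rbbp4 had 267, 274 and 260 CPM against 9.12, 10.3 and 15.3 (log2 4.75). The maintenance methyltransferase dnmt1, named after its value was seen, rose by 3.58. The members that fell include the methylcytosine dioxygenase tet1 (log2 -4.15, SE 0.43), the de novo methyltransferase dnmt3ab (log2 -2.24) and the linker histone h1-10 (log2 -1.99).

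Liver transcription factors were mostly lower than in uninjured BECs, with 18 of 28 tested genes down (64.3%), 4 up (14.3%) and a median of -0.76. Of all genes, 37.0% were lower and 40.7% higher. Against mock BECs 11 of 25 were lower and 1 higher (median -0.60), where 23.6% of all genes were lower and 30.0% higher. Without uninjured replicate 1, where more genes were tested, 7 were higher than in uninjured BECs. With no filter on low counts the median against uninjured BECs was -0.44. The hepatoblast and biliary factor sox9b had 7.27, 9.17 and 6.91 CPM at 2 dpa, 79.1, 65.6 and 86.3 CPM in uninjured and 59.9, 80.4 and 33.8 CPM in mock BECs (log2 -3.09, SE 0.26, adjusted p = 9.0e-14 by edgeR). Prox1a, needed for hepatoblast migration in the mouse, had 47.3, 51.6 and 47.5 CPM against 227, 230 and 232 CPM (log2 -2.02, SE 0.13, adjusted p = 5.6e-17). Its mock values of 97.3, 105 and 108 CPM lay between both groups.

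The other hepatoblast factors moved little or not at all by this test. Hhex had 45.7, 34.4 and 57.5 CPM against 57.8, 24.6 and 48.0 CPM, and the groups overlapped (log2 0.27, SE 0.24, adjusted p = 0.30 by edgeR). Hnf4a, the main hepatocyte nuclear receptor, had 29.6, 44.2 and 39.3 CPM against 28.9, 22.6 and 40.3 (log2 0.51, SE 0.26, adjusted p = 0.065). For gata6 the log2 change was -0.32 (SE 0.16, adjusted p = 0.063). Foxa3 was called lower, with 57.7, 39.0 and 53.6 CPM against 77.5, 71.8 and 94.0 (log2 -0.47, SE 0.18, adjusted p = 0.021), but not against mock BECs at 52.4, 40.2 and 81.2 CPM (adjusted p = 0.67). The calls of foxa3, hnf4a and hhex changed with the libraries and settings used. Without uninjured replicate 3 the log2 change of foxa3 was -0.23 and its call was lost, as it was without uninjured replicate 1, uninjured replicate 2 or 2 dpa replicate 2, and under DESeq2 (log2 -0.46). Hnf4a was called higher without uninjured replicate 3 (log2 0.87), uninjured replicate 1 or 2 dpa replicate 1, and hhex without uninjured replicate 1 (log2 0.76). Hnf4a was also called higher without the BECs carrying immune markers (log2 0.61), and both were with no filter on low counts (log2 1.07 and 0.83). With scaling by library size gata6 was called lower (log2 -0.54).

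Beyond the hepatoblast factors, the pregnane X receptor nr1i2 and the spalt factor sall1a fell by 4.35 and 2.45, and the C/EBP factor cebpb rose by 0.52 against uninjured but not against mock BECs (adjusted p = 0.72).

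**Figure D4:**
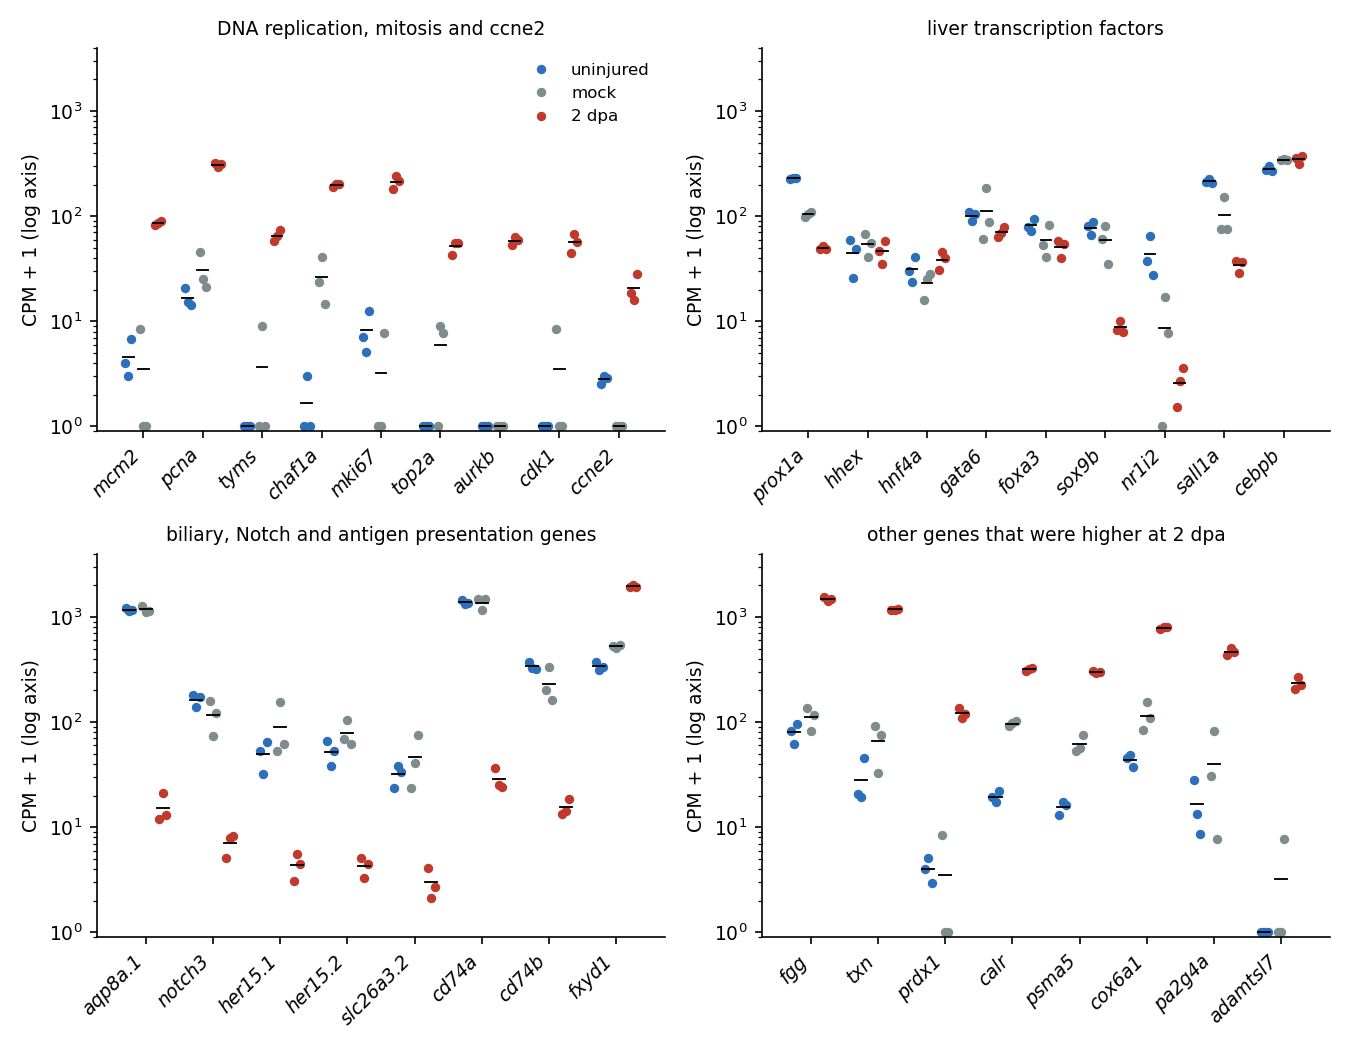
CPM + 1 (log axis) of selected genes in the BEC sums of the uninjured, mock and 2 dpa groups; each point is 1 library and lines are means of CPM. Division genes, fgg and txn lie higher at 2 dpa than in both control groups, aqp8a.1, notch3 and cd74a lie lower, and the points of hhex overlap between groups.

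Of 43 tested biliary genes, 32 were lower and 7 higher, with a median of -0.79. The median was -0.51 without uninjured replicate 1 and -0.49 without uninjured replicate 2, with 24 genes lower in each case. With no filter on low counts it was -0.14, with 19 of 61 genes lower and 13 higher. Without 2 dpa replicate 3, where 6933 genes were tested in all against 8221, 4 were higher. They held 1.51%, 1.51% and 1.48% of BEC UMIs at 2 dpa against 2.38%, 2.28% and 2.34%. The water channel aqp8a.1 had 10.9, 20.1 and 12 CPM at 2 dpa, 1213, 1132 and 1172 CPM in uninjured and 1265, 1126 and 1150 CPM in mock BECs. It was 71.3-fold lower (log2 -6.16, SE 0.12, adjusted p = 3.7e-34 by edgeR). Thinned BECs showed it in 0.886%, 1.75% and 1.32% of cells at 2 dpa (unthinned 2.34%, 4.24% and 5.29%) and in 60.0%, 61.5% and 60.3% in uninjured livers (unthinned 65.1%, 63.1% and 63.4%). The other called cells of the uninjured libraries had 7.40%, 4.44% and 5.95%. The anion exchanger slc26a3.2 fell by 3.63. Not every duct gene went down, since the ion pump regulator fxyd1 had 1931, 2028 and 1912 CPM against 371, 314 and 332 (log2 2.74, SE 0.07, adjusted p = 1.6e-30), and the progenitor factor sox4b rose by 3.08. S100a10b rose by 1.89 against uninjured BECs, but at 502, 338 and 575 CPM in mock BECs it was not called against them (log2 0.27, adjusted p = 0.080).

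The Notch pathway had the lowest median of all lists, -1.89, with 16 of 19 tested genes lower and 1 higher. Without uninjured replicate 1 the median was -1.18, with 14 of 24 lower and 2 higher, and with no filter on low counts it was -1.05, with 15 of 35 lower. Of the 14 also tested against mock BECs, 11 were lower and none was higher. The receptor notch3 had 4.16, 6.88 and 7.35 CPM at 2 dpa, 179, 137 and 171 CPM in uninjured and 157, 72.4 and 122 CPM in mock BECs (log2 -4.49, SE 0.23, adjusted p = 1.1e-20 by edgeR). The Hes-type targets her15.1 and her15.2, near-identical copies among which counting could split reads, fell by 3.62 and 3.72. The list shares notch3 with the biliary list.

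Antigen presentation genes were lower in 25 of 40 tested genes and higher in 10, with a median of -1.03, or -0.33 with no filter on low counts. Cd74a, the invariant chain of MHC class II, had 35.8, 24.1 and 22.9 CPM at 2 dpa, 1456, 1333 and 1364 CPM in uninjured and 1483, 1158 and 1468 CPM in mock BECs (log2 -5.44, SE 0.11, adjusted p = 2.4e-34 by edgeR). It is one of the macrophage markers, and the barcodes outside the called cells held it at 227 CPM at 2 dpa and 1557 CPM in uninjured libraries. In thinned uninjured BECs it was seen in 61.1%, 58.9% and 63.8% of cells (unthinned 65.6%, 66.7% and 66.2%), below the 81.4%, 84.2% and 79.3% of the other called cells. At 2 dpa it was seen in 3.12%, 2.98% and 2.71% of BECs (unthinned 10.8%, 7.98% and 9.03%) and in 32.1%, 29.7% and 31.3% of the other called cells. With background counts subtracted the log2 change of cd74a was -4.92, and without the BECs that carried immune markers it was -5.18. Cd74a is itself one of the markers by which those BECs were removed, so the latter value cannot test the part of immune cells. The paralog cd74b fell by 4.31 and the cytokine gene tnfb by 4.29. Those that rose include the proteasome activator psme1 (log2 3.04), the immunoproteasome subunit psmb10 (log2 2.83) and the guanylate-binding protein gene gbp1 (log2 3.18).

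Hepatocyte genes outside the cell rule did not rise as a group, with 18 of 60 tested genes higher (30%) and 30 lower (50%). Of the 60, 4 had no UMI at 2 dpa and passed the filter through the uninjured sums alone. They could only come out lower and add no weight to the count of falls. Of all genes, 40.7% were higher and 37.0% lower. Against mock BECs 11 of 53 were higher and 23 lower, where 30.0% and 23.6% of all genes were. The list includes vitellogenins, which are given below. Fibrinogen gamma, fgg, a secreted clotting protein of hepatocytes, had 1547, 1404 and 1470 CPM at 2 dpa, 80.6, 61.5 and 94.0 CPM in uninjured and 135, 80.4 and 115 CPM in mock BECs. It rose 21.6-fold (log2 4.43, SE 0.10, adjusted p = 9.3e-33 by edgeR). Thinned, fgg was seen in 62.4%, 62.1% and 63.8% of BECs at 2 dpa (unthinned 80.3%, 78.3% and 82.4%), in 18.7%, 18.8% and 19.5% of the other called cells of these libraries and in 6.14%, 5.93% and 6.31% of uninjured BECs. Barcodes outside the called cells held 928 CPM at 2 dpa. The hormone carrier serpina7 rose by 3.19 and the protease inhibitor a2ml by 2.91.

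The vitellogenins, yolk precursors made by the liver, fell. Vtg1 had 5.71, 7.45 and 7.78 CPM at 2 dpa, 491, 550 and 424 CPM in uninjured and 2471, 2566 and 2152 CPM in mock BECs (log2 -5.88, SE 0.17, adjusted p = 6.7e-29 by edgeR). Vtg4 had 0 UMIs at 2 dpa against 169, 183 and 169 CPM and was at least 345-fold lower, and vtg5 was likewise at least 358-fold lower. The family is multigene, so that its members may share reads. Barcodes outside the called cells held vtg1 at 3268 CPM in uninjured libraries and 89.5 CPM at 2 dpa, above the BECs in each group, and with background counts subtracted the log2 change of vtg1 was -3.66.

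Of 23 tested glycolysis genes, 11 rose and 7 fell, 47.8% and 30.4% against 40.7% and 37.0% of all genes. In the mock comparison 6 of 22 were higher and 5 lower, where 30.0% and 23.6% of all genes were. Summed, glycolysis genes held 0.188% of BEC UMIs at 2 dpa, 0.193% in uninjured and 0.175% in mock BECs (means of 3 libraries). Phosphoglycerate mutase pgam1a had 146, 144 and 137 CPM against 10.6, 20.5 and 15.3 (log2 3.45, SE 0.22, adjusted p = 1.4e-17 by edgeR), and the hexokinase gene gck rose by 3.32. The pyruvate kinase pkma fell by 1.77 and the glucose transporter slc2a2 by 1.84, the latter not called against mock BECs (adjusted p = 0.066). Of 16 cholesterol genes, 4 rose (25%) and 7 fell (43.8%). Without any 1 of the uninjured libraries 8 were higher, but from a larger tested set. In those fits 10638 to 10750 genes were tested in all, against 8221. The efflux pump abca1a and the receptor ligase mylipa fell by 2.71 and 3.22, and the synthesis enzyme idi1 rose by 1.44.

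Among 38 tested genes of the EGF family, MAPK pathway and immediate-early response, 9 rose (23.7%) and 19 fell (50%). The shares of all genes were 40.7% and 37.0%. In the mock comparison 5 of 32 were higher and 15 lower, where 30.0% and 23.6% of all genes were. The ligand hbegfa had 435, 527 and 413 CPM at 2 dpa and 222, 256 and 251 CPM in uninjured BECs (log2 1.13, SE 0.10, adjusted p = 5.9e-13 by edgeR). Mock BECs held 367, 587 and 338 CPM and were not separated from 2 dpa (log2 0.15, adjusted p = 0.45). The ligand areg had 5.19, 4.01 and 6.48 CPM against 60.8, 57.4 and 57.5 (log2 -3.22, SE 0.30, adjusted p = 1.4e-12), the ligand nrg2a fell by 4.14, and the receptor egfra had 5.19, 3.44 and 6.91 CPM against 66.9, 36.9 and 34.5 (log2 -2.92). The growth regulator myca rose by 1.51.

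Of 41 tested genes of mTORC1, insulin-like and vascular growth factors, 8 rose (19.5%) and 25 fell (61.0%). In the mock comparison 5 of 35 were higher and 13 lower, where 30.0% and 23.6% of all genes were. Summed, the list held 0.380% of BEC UMIs at 2 dpa, 0.393% in uninjured and 0.231% in mock BECs (means of 3 libraries). The growth factor igf2a had 26, 16.1 and 21.6 CPM against 164, 142 and 182, and 74.9, 88.5 and 74.4 CPM in mock BECs (log2 -2.71, SE 0.18, adjusted p = 7.7e-17 by edgeR). Its paralog igf2b, with 33 UMIs at 2 dpa and 24 in uninjured BECs, was below the filter and not tested. The vascular factor vegfab had 6.75, 8.03 and 9.94 CPM against 97.3, 103 and 111 (log2 -3.40, SE 0.23, adjusted p = 2.9e-16). The lipase inhibitor angptl4 rose by 2.67 and the translation repressor eif4ebp1 by 1.31.

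Cytoskeletal genes went both ways, with 25 of 52 tested genes higher and 16 lower. These are 48.1% and 30.8%, against 40.7% and 37.0% of all genes. In the mock comparison 17 of 50 were higher and 19 lower, where 30.0% and 23.6% of all genes were. Summed, cytoskeletal genes held less of the BEC UMIs, 1.89% at 2 dpa, 2.32% in uninjured and 2.37% in mock BECs (means of 3 libraries). Smtnl1, a smoothelin-like actin binding protein, had 166, 146 and 161 CPM against 1.52, 2.05 and 3.84 (log2 6.19, SE 0.31, adjusted p = 7.5e-21 by edgeR). The myosin light chain myl6 rose by 3.8 and the tubulin tubb2b by 3.33. The keratin krt15 fell by 4.43 and krt94 by 3.73, the latter with 1288, 933 and 744 CPM in mock BECs against 281, 275 and 249 in uninjured and 18.2, 16.6 and 17.3 at 2 dpa. Of 20 matrix, integrin and protease genes, 3 rose (15%) and 11 fell (55%), and 17 of 30 were lower without uninjured replicate 2. The number higher was 1 without 2 dpa replicate 2 and 5 without uninjured replicate 3. Fewer genes were tested in the former fit and more in the latter. Against mock BECs 2 of 15 matrix, integrin and protease genes were higher and 4 lower, where 30.0% and 23.6% of all genes were. The protease inhibitor timp2a fell by 3.39 and fn1b, a fibronectin, by 2.94.

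The largest fitted rise of all was that of adamtsl7, a matrix protein of the ADAMTS-like family. It had 208, 265 and 225 CPM at 2 dpa, no UMI in uninjured and a single UMI in mock BECs, and was at least 128-fold higher. After thinning it was seen in 16.0%, 16.0% and 16.4% of BECs at 2 dpa (unthinned 39.3%, 34.2% and 40.1%) and in 3.69%, 6.88% and 6.21% of the other called cells there. The actin-membrane protein gene marcksb was at least 40.3-fold higher and tomm40l, of the mitochondrial import pore, at least 31.5-fold. Adamtsl7, marcksb and tomm40l had no UMI in uninjured BECs, passed the filter through the 2 dpa sums alone and could only come out higher. The rank of adamtsl7 thus rests on a count of 0, and its fitted log2 change ran from 6.53 to 11.5 over the alternatives. The largest fall was that of si:dkey-14d8.6, with 3 UMIs in all at 2 dpa against 1978, 1776 and 1974 CPM in uninjured BECs. In mock BECs it had 7.49, 8.04 and 0 CPM, so that its fall was seen against uninjured BECs alone and it was below the filter of the mock comparison. The chemokine gene ccl20a.3 had 3.12, 0 and 0.432 CPM at 2 dpa, against 161, 75.9 and 94.0 CPM in uninjured and 82.4, 48.3 and 60.9 CPM in mock BECs (log2 -6.27, SE 0.41, adjusted p = 3.0e-17 by edgeR).

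Set beside the other groups of the series, the lists did not have their extremes at the same time. Mitosis genes held 0.0969% of BEC UMIs at 1 dpa, 0.634% at 2 dpa and 0.384% at 3 dpa, as means of 3 libraries. Ribosome biogenesis genes were higher at 0 and 1 dpa, 2.36% and 2.28%, than at 2 dpa, 1.90%. Proteasome genes held 0.259% in mock and 0.111% in uninjured BECs, and 0.841% at 2 dpa. These are descriptions without a test. At 3 dpa the hepatocyte limit removed 477, 460 and 476 marker-positive cells, so the BECs left there are a selected set.

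**Figure D5:**
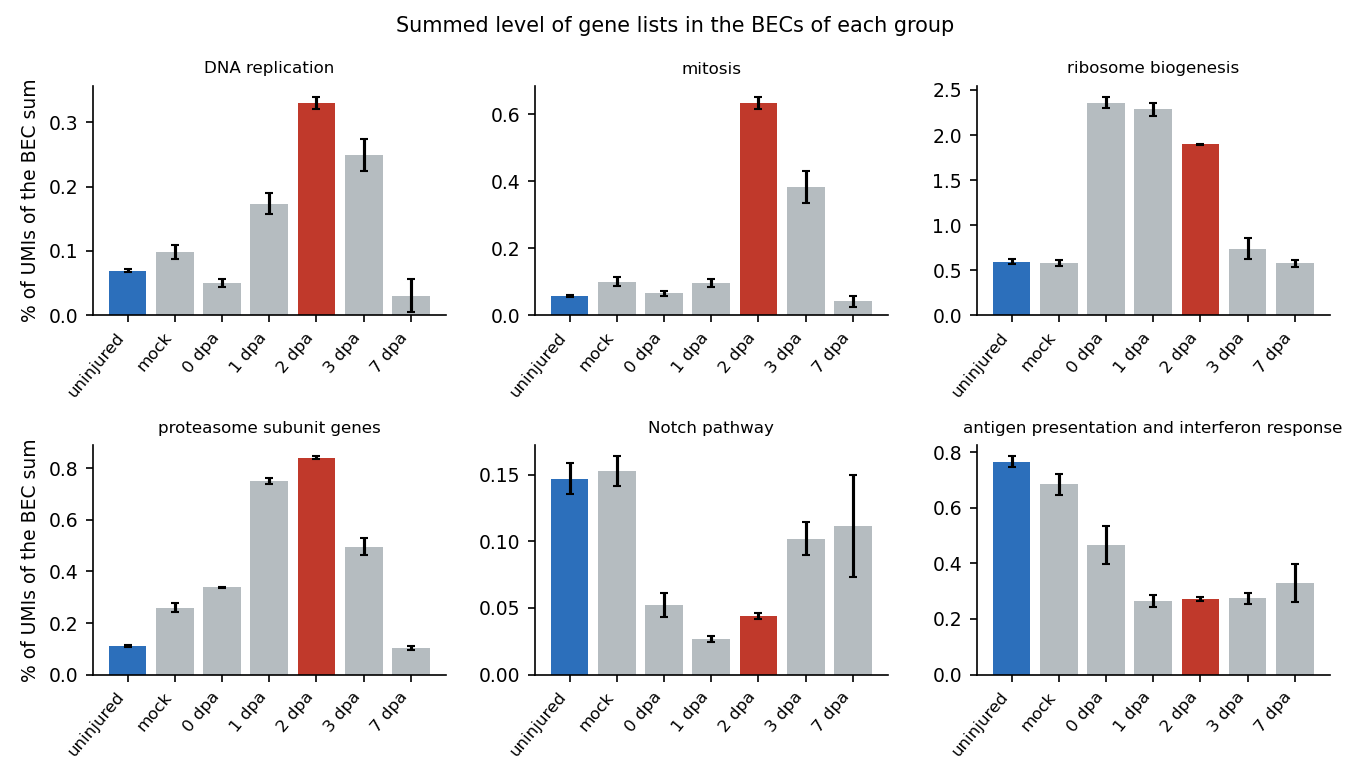
Percent of BEC UMIs taken by 6 gene lists (linear axes from 0) in uninjured (blue), mock, 0, 1, 2 (red), 3 and 7 dpa BECs; bars are means of 3 libraries and error bars SD. Mitosis genes peak at 2 dpa (0.634%), while ribosome biogenesis genes are highest at 0 dpa (2.36%) and Notch genes lowest at 1 dpa (0.0266%). The 3 dpa BECs are those left after the hepatocyte limit removed 477, 460 and 476 marker-positive cells.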

How the data were processed

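Deposited values were raw UMI counts per gene and barcode, 5000 barcodes per library, which the authors made with Drop-Seq tools after alignment with STAR (version 2.5.3 in the submitters' processing notes, which also name FastQC 0.11.2 and GRCz11). Totals were 3080585 to 3813881 UMIs per library at 2 dpa, 1898455 to 2451652 in uninjured mCherry+ and 926798 to 1033711 in mock libraries. Intervals cover counting error only.

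Cells and BECs were chosen as described above, and doublets were not removed. Raw counts of the BECs were summed per library. The 3 libraries at 2 dpa were compared with the 3 uninjured libraries by edgeR 4.0.16 (glmQLFit and glmQLFTest, TMM factors, filterByExpr) in R 4.3.3. Benjamini-Hochberg adjustment ran over all tested genes, with a threshold of 0.05. The fit was also run on simulated counts in which few genes were changed. Most genes were called in the data, so that run cannot test the scaling or the calls made here. The 9 genes of the cell rule were not tested. Where a group had 0 UMIs, a fold was taken against 3 counts over that group. Single values were tested by exact permutation of libraries.

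The members and gene lists were chosen with earlier results of these data known. Named genes were the 12 largest rises and 12 largest falls with an adjusted p under 0.05, no overlap between groups and a mean of at least 50 CPM in the higher group, leaving out genes of the cell rule and markers of other cell types. To these were added up to 3 rises and 3 falls per list at 20 CPM or more, and the hepatoblast factors, hbegfa, mcm2, pcna, mki67, top2a, aurkb, ccne2, igf2a, igf2b and vegfab whatever their values. Alternatives were other scalings and filters, DESeq2 1.42.0, a replicate block, other cell limits, thinning, background subtraction, the mock control and leaving out each library. Removal of BECs with immune markers was chosen after seeing the data. A planned search of promoter motifs was not run. No sequence is shown, and some genes are not reported here.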

Additional observations from a re-analysis of the deposited data

How the results depend on the processing

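The number of called genes was 6383 of 8221. It moved with fewer UMIs or another control, to 4055 (2032 higher, 2023 lower) with sums thinned to the shallowest, to 3568 (1996 and 1572) against mock BECs, and to 2659 (1219 and 1440) with all mCherry+ BEC sums in 1 fit, where fewer genes passed the filter. With no filter on low counts 5129 genes were called higher. DESeq2 called 5886 genes, library size scaling 6345 and upper quartile scaling 6308. Leaving out 1 library gave 5531 to 7351 called genes, 2833 to 3955 higher and 2698 to 3396 lower. It also changed the tested set, to 6914 to 6936 genes without a 2 dpa library and 10638 to 10750 without an uninjured library. Counts per list under these settings thus rest on unlike sets of genes. Of the 22 lists 13 had more genes higher than lower, and 13 to 14 when a library was left out. Markers of at least 1% kept 500 BECs at 2 dpa. The ratio of median UMIs per BEC, 2.78, was 2.57 to 2.95 without single libraries. Replicate numbers did not pair the samples, since residuals of same-numbered libraries correlated at -0.014, 0.0092 and 0.0020. The replicate block gave 6229 called genes (3277 higher, 2952 lower).

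List medians that turned were those of the EGF and MAPK genes (0.19 with no filter), cholesterol (0.95 with no filter, 0.34 with at least 10 UMIs in every sum, and 0.63, 0.50 and 0.15 without uninjured replicates 1, 2 and 3, in a range of -0.92 to 0.63 over the libraries left out), glycolysis (-0.043 with no filter, -0.16 thinned, -0.46 with all sums in 1 fit), and, with all sums in 1 fit, keratins, actin and myosin (-0.27), stress (-0.24) and G1 cyclins (-0.22). Of 132 named genes in the fit, 115 kept their call and direction wherever they were tested. Genes that turned were cebpb (-0.035 with background subtracted, -0.20 in the joint fit), eef1da (0.072) and btf3 (0.13) with no filter, npc2 (-0.051 in the joint fit), agrn (-0.65 against mock, -0.060 in the joint fit), hhex (-0.047 with upper quartile scaling, -0.050 with at least 10 UMIs, -0.11 thinned, -0.18 against mock, -0.45 in the joint fit), hnf4a (-0.21 with markers of at least 1%), gata6 (0.24) and foxa3 (0.091) with no filter. The causes were not tested. The call of agrn, 0.65 in the main comparison, was also lost under the replicate block. BEC sums of mock libraries held 124323 to 147804 UMIs, which limits the depth of that comparison.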

Other observations

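The other days of the series place the 2 dpa values. Values are mean CPM in BEC sums of 3 libraries, as a description without a test. There were 486 BECs at 0 dpa and 827 at 1 dpa, but 140 and 51 at 3 and 7 dpa, so that the last values rest on few cells. At 3 dpa the hepatocyte limit removed 477, 460 and 476 of 517, 497 and 539 marker-positive cells. Those left are low in hepatocyte RNA by selection, so steps from 2 to 3 dpa compare unlike sets of cells. Mki67 stood at 22.8 CPM at 0 dpa and 19.8 at 1 dpa, before 211.3 at 2 dpa. It was down to 90.7 at 3 dpa, with 0 UMIs at 7 dpa. Pcna was already at 142.4 CPM at 1 dpa, before 306.6 at 2 dpa and 163.5 at 3 dpa.

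Other genes had moved before division genes did. Txn stood at 1012 CPM at 0 dpa, 1495 at 1 dpa and 1177 at 2 dpa, and was back at 79.2 at 7 dpa. Hbegfa was highest at 0 dpa with 1232 CPM, against 739.6 at 1 dpa and 458.1 at 2 dpa. Notch3, at 9.72 CPM on day 0 and 6.13 on day 2, was back at 45.1 by 3 dpa and 163.9 by 7 dpa. Aqp8a.1 fell more gradually, from 206.5 CPM at 0 dpa to 14.8 at 1 dpa, and stood at 450.9 at 3 dpa. Adamtsl7 was confined in these sums to 1 dpa (203.9 CPM) and 2 dpa (232.5 CPM), apart from 1 to 3 UMIs in mock, 0 dpa and 3 dpa sums. Hnf4a, with 3, 13, 225 and 6 UMIs, was at 5.75 CPM at 0 dpa and 6.20 at 1 dpa, then 37.7 at 2 dpa. By 3 dpa it stood at 13.1 CPM, in the BECs that the hepatocyte limit left.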
